A study of Mus musculus with 9 samples.

Results

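Heat shock chaperone genes encode the proteins that hold, fold and refold other proteins. The listed genes numbered 10: the inducible HSP70 genes Hspa1a and Hspa1b, the constitutive HSP70 gene Hspa8, the HSP110 gene Hsph1, the cytosolic HSP90 genes Hsp90aa1 and Hsp90ab1, the J-domain genes Dnaja1 and Dnajb1, and the mitochondrial chaperonin genes Hspd1 and Hspe1. Members were all probe sets that the platform annotation gives to 1 of these symbols alone. They were 23 of 45101 probe sets and covered 9 of the 10 genes, out of 18193 genes with a probe set of their own. The annotation table used here held no probe set for Hsp90ab1, which is not analysed here.

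RNA was measured on 9 Affymetrix arrays of EYFP-positive granulocyte-macrophage progenitors (GMPs), the marrow cells that give rise to neutrophils and monocytes. There were 3 arrays for each of 3 donor genotypes, labelled Dicer null (both floxed Dicer1 alleles recombined), Dicer heterozygous deletion (1 allele) and Dicer wild type. All donors carried Cebpa-Cre and the R26-LSL-Eyfp reporter, so the wild-type cells expressed Cre as well. Donor cells were fetal liver cells of embryonic day 13.5 placed in irradiated C57BL/6 recipients, and progenitors were sorted from the marrow 6 to 10 weeks later. Cre is driven by Cebpa, a myeloid regulator, so deletion takes place in cells that have switched Cebpa on. Cells of 1 fetal liver usually went into more than 1 recipient, and the labels do not say which arrays share a donor, so p-values measure the spread between these samples.

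Cells make HSP70, HSP90 and their partners in 2 modes. Constitutive members such as Hspa8 work in every cell on newly made proteins. Inducible members are switched on within minutes by heat shock factor 1, which binds as a trimer to inverted repeats of the unit GAA in their promoters, called heat shock elements. J-domain proteins hand clients to HSP70 and trigger its ATP hydrolysis, HSP110 exchanges the nucleotide on HSP70, and the mitochondrial pair forms a closed barrel, Hspd1 (HSP60), with its lid, Hspe1 (HSP10). Here Hspa1a, Hspa1b, Hsph1, Dnajb1 and Hsp90aa1 were taken as stress-induced, and Hspa8, Dnaja1, Hspd1 and Hspe1 as constitutive, from textbook knowledge. Several of the constitutive genes also respond to heat.

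RefSeq promoter windows (GRCm38.p6, 250 bases before to 50 after a gene start) were at hand for 7 members in 12 windows. Hspa1a and Hspa1b are neighbours on chromosome 17, and their 250 upstream bases, shown because both genes have the largest differences below, differ at 3 positions. Capitals mark the inverted pair GAANNTTC, 97 to 104 bases before the gene start in both, at chr17:34972157-34972406 and chr17:34959239-34959488 on the minus strand.
Hspa1a: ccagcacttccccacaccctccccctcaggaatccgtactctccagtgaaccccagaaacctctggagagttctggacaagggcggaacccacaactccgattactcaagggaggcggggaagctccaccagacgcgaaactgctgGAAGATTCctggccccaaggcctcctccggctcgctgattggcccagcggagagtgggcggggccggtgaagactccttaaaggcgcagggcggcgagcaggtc
Hspa1b: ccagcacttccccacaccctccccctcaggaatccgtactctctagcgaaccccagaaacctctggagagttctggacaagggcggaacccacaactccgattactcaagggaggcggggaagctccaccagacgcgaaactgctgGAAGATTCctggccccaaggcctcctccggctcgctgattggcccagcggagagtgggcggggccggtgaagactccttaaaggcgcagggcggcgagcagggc

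For Hsph1, Hspe1 and Dnaja1, 30 bases around each run of the element are shown, to set a run of several units beside a single pair. The Hspe1 stretch, chr1:55088053-55088082 on the plus strand, falls in the Hspe1 window and, on the other strand, in a promoter window of its neighbour Hspd1. The Hsph1 stretches are chr5:149636351-149636380 and chr5:149636287-149636316 on the minus strand, the second just after the gene start, and the Dnaja1 stretch is chr4:40722333-40722362 on the plus strand.
Hspe1: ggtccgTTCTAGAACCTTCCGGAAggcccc
Hsph1: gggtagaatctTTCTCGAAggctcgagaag
Hsph1: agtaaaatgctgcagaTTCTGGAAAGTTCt
Dnaja1: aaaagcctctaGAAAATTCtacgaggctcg

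The pairs GAANNTTC or TTCNNGAA, which read the same on both strands, were in 7 of the 12 member windows and in 15.1% of all 32851 windows. In a run of 3 units, GAANNTTC and TTCNNGAA overlap by their shared unit, so that it holds both pairs. Such a run was in 4 member windows and in 0.603% of all. The 4 were both windows of Hsph1, 1 of the 2 of Hspd1 and that of Hspe1. The Hsph1 windows overlap and hold the same run, and the Hspd1 and Hspe1 windows share theirs. Window counts are therefore not counts of separate sites. The windows of Dnajb1 held none of these letters, which says only that they are not there. A match describes a window and is no evidence of binding.

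The values were MAS5 signals, the authors' brightness per probe set, which had been brought to a trimmed mean of 100 on every array. Array medians were 12.4 to 16.1, and arrays correlated at 0.9721 to 0.989 over the genes tested. Dicer1 itself had signals of 97.2 to 115 in null cells, 169 to 201 in heterozygous cells and 223 to 244 in wild-type cells. All 9 GMP markers were tested. Of these 1 rose and 0 fell in null against wild type, where 7.6% of all genes rose and 8.09% fell. The 1 that rose was Fcgr3, a receptor for antibody (0.37, limma adjusted p = 0.00959), while Elane (-0.28) and Cebpa (-0.33) did not pass. The summed signal of the 9 was 25087 to 27109 on null, 24748 to 28883 on heterozygous and 24216 to 27046 on wild-type arrays. Of the monocyte markers (4 tested) Ccr2, a chemokine receptor, rose in null against wild type (0.75, limma adjusted p = 0.0459), while F13a1 and Cx3cr1 did not pass. The Ccr2 probe set used read 1389, 640 and 1587 on wild-type replicates 1, 2 and 3. Its other probe sets gave 0.78, -0.24 and -0.25. With every probe set tested, none of those of Ccr2 passed. Of the mast cell and basophil markers (4 tested) Fcer1a, the IgE receptor chain, fell, while Cpa3 and Mcpt8 did not pass. Their summed signal was 3627 to 5560 on null, 2817 to 3420 on heterozygous and 3239 to 5044 on wild-type arrays. T and NK cell markers summed to at most 37.7 on any array, and the 1 tested, Klrd1, fell in null cells (-0.65, adjusted p = 0.042). B cell markers summed to at most 202 and erythroid markers to at most 226, and those tested, Cd79b, Klf1 and Gata1, did not pass. All 9 samples are labelled female, and it is not stated if this is the donor's sex or the recipient's. Wild-type replicate 2 differed from the others in this, with signals of 2610 for Xist, made from the inactive X, and 1.13 for the Y-linked Eif2s3y, against at most 30.2 and at least 622 on the other 8 arrays, so it was the 1 array whose signals match that label. The ratio of the 3′ to the 5′ Gapdh control probe set, which rises with RNA degradation, was 7.11 to 7.72 on null, 6 to 6.33 on heterozygous and 6.56 to 7.44 on wild-type arrays. The same ratio for actin was 7.28 to 8.25 on null, 7.48 to 8.45 on heterozygous and 7.2 to 10.1 on wild-type arrays, highest on wild-type replicate 2. The 18S ribosomal control read 1338 to 1830 on null, 2548 to 3128 on heterozygous and 907 to 1932 on wild-type arrays, highest in the heterozygous group and lowest on wild-type replicate 2. All 9 member genes and 22 of their 23 probe sets passed the filter on dim signals.

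In Dicer null GMPs the inducible HSP70 genes were several-fold lower than in wild-type GMPs, Hsph1 and Hspe1 were modestly lower, and Hspa8, Hsp90aa1, Dnaja1, Dnajb1 and Hspd1 did not pass the test. With 1 probe set for each gene, the brightest, 4 of 9 members fell and 0 rose in limma's test (adjusted p under 0.05 over 12347 genes). Of all genes tested, 8.09% fell and 7.6% rose. The median change of the 9 was -0.12 on the log2 scale, beside -0.04 over all genes tested. The 4 were Hspa1a, Hspa1b and Hsph1 of the 5 stress-induced genes and Hspe1 of the 4 constitutive ones. Values of null and wild-type arrays did not overlap for 7 members, 5 lower and 2 higher, where 19% and 14.1% of all genes were lower and higher without overlap.

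In heterozygous against wild-type GMPs limma called 0 of 9 members, where 0.697% of all genes fell and 0.697% rose. Values of the groups did not overlap for Dnajb1, which was lower, and Hspd1, which was higher, where 9.78% and 8.48% of all genes were lower and higher without overlap. Of the 9 members, 2 had an unadjusted p under 0.05, Hspa1a and Hspa1b, where 12.9% of all genes did. The replicate number as a block, or array weights, called the same number, 2. In null against heterozygous GMPs 2 of 9 fell and 0 rose, Hsph1 and Hspe1, where 7.49% of all genes fell and 6.84% rose. They were also the members without overlap, 2 lower and 0 higher, beside 18% and 14.7% of all genes. With every probe set tested, 7 of 22 fell in null against wild type (6.17% of all probe sets fell and 5.04% rose), 0 passed in heterozygous against wild type (0.525% and 0.503%) and 3 fell in null against heterozygous cells (4.72% and 4.4%). These comparisons share arrays with each other, so their values are given side by side and not as independent results.

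**Figure D1:**
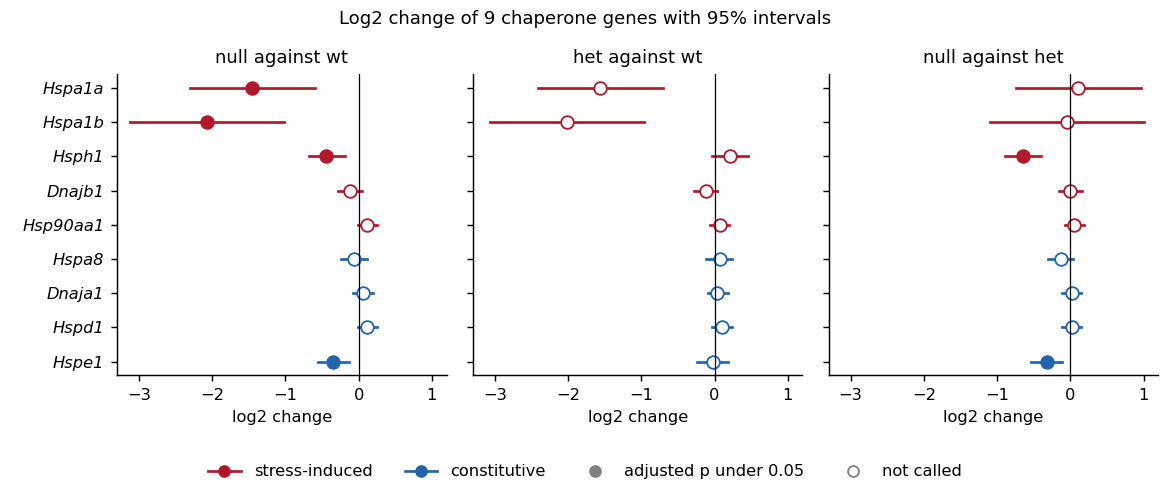
Log2 change (x axis) of the 9 member genes in 3 comparisons, each point an estimate with its 95% interval from limma, filled where the adjusted p was under 0.05, in red for stress-induced and blue for constitutive genes. Hspa1a and Hspa1b lie between -1.45 and -2.07 with wide intervals in both comparisons with wild type, while Hsph1 and Hspe1 lie below 0 in both comparisons of null cells.

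Hspa1b, which encodes the inducible HSP70 of the cytosol, had signals of 115, 61.7 and 101 on the null arrays, 43.9, 87.8 and 200 on the heterozygous arrays, and 720, 158 and 623 on the wild-type arrays, for its brightest probe set. Wild-type replicates 1 and 3 were far above all other arrays, wild-type replicate 2 was above the null arrays, and heterozygous replicate 3 was above wild-type replicate 2. The mean was 92.7 ± 27.7 in null, 110 ± 80.3 in heterozygous and 501 ± 300 in wild-type cells (SD, n = 3 each). On the scale log2(signal + 12), used for all changes below, null against wild type was -2.07 (SE 0.49, limma adjusted p = 0.0107), a 4.21-fold lower level. Heterozygous against wild type was -2.02 with the same SE, a change of nearly equal size that did not pass (adjusted p = 0.0619). Null against heterozygous was -0.05 with a 95% interval of -1.1 to 1, which leaves room for a difference of about 2-fold either way. In bulk RNA of sorted cells, fewer cells that express a gene and less RNA per cell cannot be told apart.

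The other 2 probe sets of Hspa1b were likewise highest on wild-type replicates 1 and 3. The probe set 1427127_x_at read 33, 14.2 and 29.6 in null, 13.3, 27.5 and 37.5 in heterozygous, and 178, 39.9 and 172 in wild-type cells. The probe set 1427126_at read 20.5, 10.2 and 16.5 in null, 8.87, 15.6 and 26.8 in heterozygous, and 78, 23 and 102 in wild-type cells. In the fit over 27022 probe sets they gave -1.73 and -1.38 in null against wild type (adjusted p = 0.0141 and 0.0232), and -1.73 and -1.33 in heterozygous against wild type (adjusted p = 0.0659 and 0.111). Wild-type replicate 2 was the lowest of the 3 wild-type arrays for each probe set of the gene.

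Hspa1a, the neighbouring copy that encodes a near-identical HSP70, had 1 probe set. It read 11.4, 11.1 and 13.5 on null arrays, 11.8, 1.9 and 21.3 on heterozygous arrays, and 92.5, 17.9 and 78.7 on wild-type arrays. As for Hspa1b, wild-type replicates 1 and 3 were high and wild-type replicate 2 lay below heterozygous replicate 3. The change was -1.45 in null (SE 0.40, adjusted p = 0.0234) and -1.56 in heterozygous cells (adjusted p = 0.0757), each against wild type, and 0.11 in null against heterozygous (95% interval -0.74 to 0.96). The means were 12 ± 1.32 in null, 11.7 ± 9.73 in heterozygous and 63 ± 39.7 in wild-type cells, where the filter stood at a signal of 8.49. The copies are so alike that transcripts of one may bind probes of the other, so the signals may be shared. Their log2 values correlated at 0.916 over the 9 arrays, as a description.

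The call of both HSP70 genes depended on single arrays and, for Hspa1a, on settings. Without wild-type replicate 2, Hspa1b changed by -2.74 in null (adjusted p = 0.000374) and by -2.69 in heterozygous cells (adjusted p = 0.00162), and Hspa1a by -2.02 (adjusted p = 0.00057) and -2.13 (adjusted p = 0.0013). Without wild-type replicate 1 Hspa1b in null cells gave -1.69 (adjusted p = 0.0527), and without wild-type replicate 3 -1.79 (adjusted p = 0.0503). For Hspa1a the adjusted p was 0.105 and 0.0972 in the same fits, and 0.06, 0.0574 and 0.0514 without null replicate 1, 2 or 3. Hspa1a also did not pass with no filter (adjusted p = 0.0597), with no intensity trend (0.0743) or with a pseudocount of 1 (-2, 0.0639), and gave -0.80 with a pseudocount of 50 (0.0171). Its null signals lie near the pseudocount of 12, so the size of its change follows that choice, and it passed in 11 of 19 alternatives. Hspa1b passed in 17 of 20, failed with no intensity trend as well (0.0584), and gave -2.20 and -1.76 with those pseudocounts. The direction was the same in all of these. Wild-type replicate 2 also had the highest actin ratio and the lowest 18S signal. It alone had a high Xist signal (2610) and almost no Eif2s3y signal (1.13), so its cells differed in sex markers from the other arrays. The part of these differences in its HSP70 values was not tested.

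**Figure D2:**
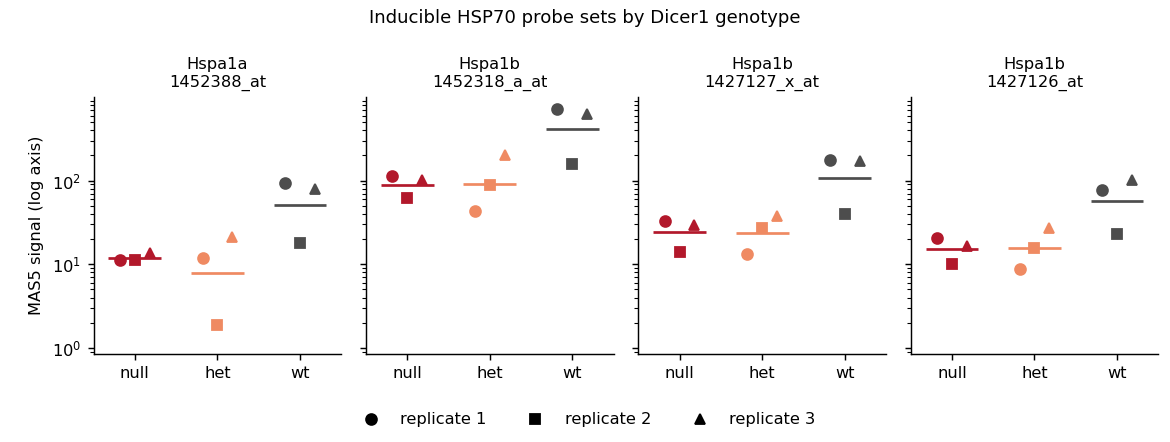
MAS5 signal (log y axis) of the Hspa1a probe set and the 3 Hspa1b probe sets on each array, by genotype, with circles, squares and triangles for replicates 1, 2 and 3 and lines at the geometric mean. In all 4 panels wild-type replicates 1 and 3 stand highest, and wild-type replicate 2 lies near the highest heterozygous array.

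Immediate early genes, such as Fos and Jun, are also switched on within minutes of handling or stress. Of 19 tested, 9 fell and 0 rose in null against wild type, where 8.09% of all genes fell and 7.6% rose. In heterozygous against wild type 8 fell and 0 rose, where 0.697% of all genes fell and 0.697% rose. The summed signal of the early genes was 2032 to 2876 on null, 2595 to 3477 on heterozygous and 6702 to 8596 on wild-type arrays, so the wild-type group did not overlap the others. Within the wild-type group they had no common order. Wild-type replicate 2, the lowest of its group for Hspa1b, was the lowest for 3 of the 19 (Klf4, Klf6 and Ier5), in the middle for 6, Fos among them, and the highest for 10. Among the 9 that fell it was the lowest for 1, Klf4 (895, 605 and 1098 on wild-type replicates 1, 2 and 3), in the middle for 4 and the highest for 4. Jun read 498, 673 and 569 on wild-type replicates 1, 2 and 3, and Dusp1, a phosphatase of MAP kinases, read 255, 543 and 290. Egr1 read 102, 365 and 224.

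Some markers of other cells were also highest in the wild-type group. Fcer1a read 28.6, 42.6 and 30.6 on null, 16.9, 8.26 and 15.1 on heterozygous, and 106, 453 and 172 on wild-type arrays (adjusted p = 0.000774 and 0.000198 against wild type). The other mast cell and basophil markers went the other way in null against wild type, Cpa3 (0.27), Mcpt8 (0.39) and Ms4a2 (0.24), and did not pass. Cpa3 and Mcpt8 rose in null against heterozygous cells (0.56 and 0.61, limma adjusted p = 0.0116 and 0.0352). Of 7 late neutrophil markers tested, 2 were lower in null cells, 3 were lower in heterozygous cells and 0 rose, each relative to wild type. Of all genes, 8.09% fell in null and 0.697% in heterozygous cells. Ltf and Ngp, proteins of neutrophil granules, fell in both, Ltf with 13.4 to 19.9 in null, 12.9 to 26.8 in heterozygous and 76.5 to 174 in wild-type cells. Lcn2, another granule protein, fell in heterozygous cells (-1.78, adjusted p = 0.00579) and gave 0.29 in null cells, which did not pass, like S100a8 (0.09) and Mmp8 (-0.29). The summed signal of the 8 late neutrophil markers was 2423 to 8800 on null, 2748 to 5036 on heterozygous and 3998 to 7464 on wild-type arrays. The part of these other genes, or of handling, in the HSP70 values was not tested.

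**Figure D3:**
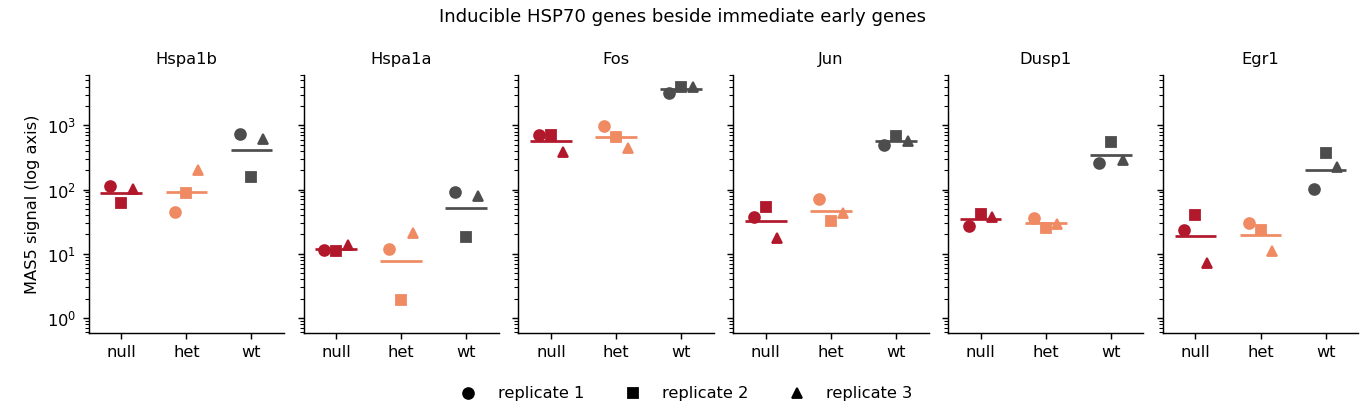
MAS5 signal (shared log y axis) of Hspa1b, Hspa1a and 4 immediate early genes on each array, by genotype, with lines at the geometric mean of 3 arrays. Wild-type replicate 2 (square) is low within its group for both HSP70 genes and highest for Jun, Dusp1 and Egr1.

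Hsph1, the HSP110 that recharges HSP70 with ATP, was lower in null cells than in both other genotypes. Its brighter probe set read 642, 533 and 483 on null arrays, 778, 860 and 983 on heterozygous arrays, and 667, 792 and 791 on wild-type arrays. Every null value lay below every heterozygous and wild-type value. Null against heterozygous was -0.65 (SE 0.12, limma adjusted p = 0.00219) and null against wild type -0.44 (adjusted p = 0.0196), while heterozygous against wild type was 0.21 with an adjusted p of 0.473 and an interval of -0.03 to 0.46. Its other probe set read 83.2, 59.5 and 63.9 in null, 82.3, 131 and 146 in heterozygous, and 70.9, 82.5 and 129 in wild-type cells. There the groups overlapped and neither difference of null cells passed (-0.68, adjusted p = 0.0657, and -0.37, adjusted p = 0.315). The fall against heterozygous cells passed in all 20 alternative fits of the brighter or averaged signal, and the fall against wild type in 14. Against wild type it did not pass without null replicate 2 or 3 (adjusted p = 0.0558 and 0.0908) or wild-type replicate 2 or 3 (0.0619 and 0.0723), with both probe sets averaged (-0.40, 0.127) or with no intensity trend (0.0753).

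Hspe1 and Hspd1, lid and barrel of the mitochondrial chaperonin, are neighbours that share the promoter stretch shown above. Hspe1 read 361, 406 and 342 on null arrays, 529, 422 and 447 on heterozygous arrays, and 451, 490 and 474 on wild-type arrays, and all null values were the lowest. Hspd1 read 3786, 3985 and 3858 on null, 3735, 3839 and 3912 on heterozygous, and 3695, 3608 and 3401 on wild-type arrays, with the null values above the wild-type ones. Hspe1 fell by 0.35 on the log2 scale in null against wild type (SE 0.10, adjusted p = 0.0305) and by 0.32 against heterozygous (adjusted p = 0.044). Hspd1 gave 0.12 against wild type (adjusted p = 0.225, interval -0.01 to 0.25) and 0.02 against heterozygous. The dimmer probe set of Hspe1 read 69, 68.2 and 61.6 in null and 65.8, 91.4 and 100 in wild-type cells, which overlapped (-0.31, adjusted p = 0.219).

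The log2 difference of Hspe1 minus Hspd1 within an array was -3.35 ± 0.1 in null cells, -3.01 ± 0.19 in heterozygous cells and -2.89 ± 0.1 in wild-type cells (SD, n = 3 each). Null minus wild type was -0.47, with an exact two-sided permutation p of 0.1, the smallest that 3 against 3 allows. Against heterozygous cells the fall of Hspe1 passed in 8 of 20 alternatives, with adjusted p of 0.0319 to 0.176, and failed without null replicate 1 or 3, heterozygous replicate 1 or 3 or wild-type replicate 1 or 3, and with no filter, cyclic loess, no intensity trend, only the groups compared, array weights or averaged probe sets. Against wild type it passed in 14 of 20, and failed without null replicate 1 or 3 or wild-type replicate 2 or 3 (0.0827, 0.12, 0.0861 and 0.0788), with averaged probe sets (0.0644) or with no intensity trend (0.0806).

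**Figure D4:**
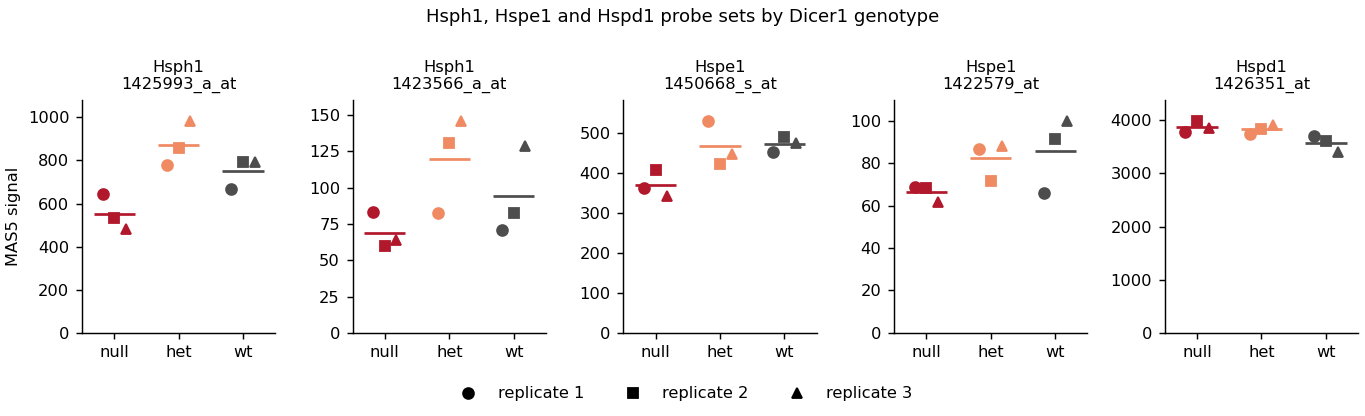
MAS5 signal (linear y axis from 0) of the probe sets of Hsph1, Hspe1 and Hspd1 on each array, by genotype, with lines at the mean of 3 arrays. Null arrays are lowest for the brighter probe sets of Hsph1 (483 to 642) and Hspe1 (342 to 406) and not for Hspd1.

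Hspa8, the constitutive HSP70 that also strips clathrin from vesicles, gave different answers by probe set. Its brightest, 1455789_x_at, read 9169, 8941 and 7634 in null, 10065, 9466 and 8630 in heterozygous, and 9561, 8629 and 8635 in wild-type cells. These groups overlapped, and null against wild type was -0.06 (interval -0.24 to 0.11). Its other probe sets all had negative estimates in null cells. The probe set 1420623_x_at read 4004, 3289 and 3370 in null, 4479, 4701 and 4590 in heterozygous, and 3789, 4167 and 4386 in wild-type cells. The probe set 1420622_a_at read 2299, 1870 and 2313 in null, 2730, 2950 and 3341 in heterozygous, and 2328, 2757 and 3228 in wild-type cells. For both, each null array lay below each heterozygous array, and the difference passed in the fit over probe sets (-0.37, adjusted p = 0.0133, and -0.48, adjusted p = 0.0223).

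Against wild type the same 2 probe sets gave -0.21 and -0.35, which did not pass (adjusted p = 0.123 and 0.0733). The dimmest, 1431182_at, read 176, 107 and 90.5 in null, 248, 152 and 118 in heterozygous, and 315, 179 and 257 in wild-type cells. It fell by 0.96 in null against wild type (adjusted p = 0.0298). Null and wild-type values did not overlap, by a narrow margin (176 against 179), while heterozygous values overlapped with both. In the suffixes, x marks probes that can also bind other transcripts, and a marks probes shared by several transcripts of 1 gene. With the 4 probe sets averaged, Hspa8 gave -0.40 in null against wild type (adjusted p = 0.0236) and -0.35 against heterozygous (adjusted p = 0.0417), so its call turns on which probe sets stand for it.

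**Figure D5:**
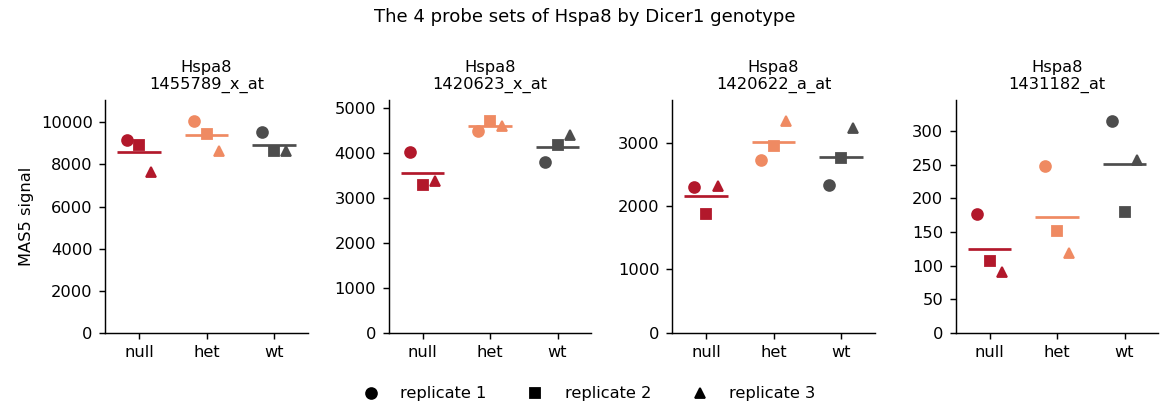
MAS5 signal (linear y axis from 0) of the 4 probe sets of Hspa8 on each array, by genotype, with lines at the mean of 3 arrays. The genotypes overlap for the brightest probe set, while null arrays are below heterozygous arrays for both probe sets of middle brightness.

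The remaining stress-induced members, Hsp90aa1 and Dnajb1, did not pass the test in any comparison. Hsp90aa1, the inducible cytosolic HSP90, read 6029, 6497 and 6394 in null, 6044, 5923 and 6258 in heterozygous, and 5946, 5572 and 5839 in wild-type cells. Null values lay above wild-type ones, by 0.12 (adjusted p = 0.197), and the interval of -0.01 to 0.25 leaves out a fall of the size seen for HSP70. Its probe set 1426645_at was higher without overlap in both null (4260, 4400 and 4314) and heterozygous cells (4721, 4695 and 4434) than in wild-type cells (3797, 3696 and 3939), by 0.18 and 0.28, but did not pass (adjusted p = 0.0821 and 0.0591). Another, 1437497_a_at, overlapped between null and wild type. The 2 dimmest probe sets of the gene had signals of at most 21.6, and 1 of them was below the filter.

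Dnajb1, the heat-inducible J-domain partner of HSP70, read 838, 815 and 806 in null, 806, 836 and 812 in heterozygous, and 840, 935 and 900 in wild-type cells. The wild-type values were the highest by a narrow margin, and the change was -0.12 in null and -0.12 in heterozygous cells (adjusted p = 0.312 and 0.527, interval in null -0.28 to 0.04). Dnaja1, the constitutive J-domain protein, read 2424, 2323 and 2362 in null, 2278, 2363 and 2387 in heterozygous, and 2200, 2325 and 2308 in wild-type cells, which overlapped throughout. Null against wild type was 0.06 for Dnaja1 (interval -0.08 to 0.19), and its other 2 probe sets gave 0.20 and 0.03. The difference of Dnajb1 minus Dnaja1 was -0.18 in null and -0.16 in heterozygous arrays relative to wild type, each with the smallest exact permutation p, 0.1, or 0.2 after adjustment over 12 such tests of 4 gene pairs.

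Stress-induced and constitutive members can be set beside each other as means of their log2 values. The 5 stress-induced genes averaged 8.54 ± 0.1 in null, 8.65 ± 0.31 in heterozygous and 9.33 ± 0.41 in wild-type cells (SD, n = 3 each). The 4 constitutive genes averaged 11.19 ± 0.06, 11.3 ± 0.05 and 11.25 ± 0.02 in the same groups. Relative to wild type the stress-induced mean differed by -0.79 in null and -0.68 in heterozygous cells, while the constitutive mean differed by -0.06 and 0.05. Single arrays ranged from 8.44 to 8.64 in null, 8.45 to 9.01 in heterozygous and 8.86 to 9.58 in wild-type cells for the stress-induced mean, so the heterozygous and wild-type ranges overlapped. Hspa1a, Hspa1b and, in null cells, Hsph1 were the stress-induced genes furthest below wild type. The mean counts both HSP70 copies, whose signals may be shared. Relative to wild type, Hsph1, Hsp90aa1 and Dnajb1 gave -0.44, 0.12 and -0.12 in null cells. In heterozygous cells they gave 0.21, 0.07 and -0.12, so the lower mean there came from the HSP70 copies. Within the class, log2 changes in null against wild type spanned -2.07 to 0.12, and within the constitutive class -0.35 to 0.12.

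The genes whose 9 log2 values followed Hspa1b most closely, other than members, were Ccser2 (Pearson r = 0.942), Ufl1, Ddx42, Stat5b and Spsb3 (0.913). All were highest on wild-type replicate 1 or 3, which comes with their choice by likeness to Hspa1b. Their changes in null against wild type were -0.17 to -0.38, and none passed (limma adjusted p = 0.0662 to 0.353). Those most like the brightest Hspa8 probe set were Uqcrb (0.948), Mpo, Rnf215, Tpt1 and Hnrnpab (0.938). These correlations are the highest among all genes tested, over 9 arrays, and the reason for the likeness was not tested.

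Other chaperone and cochaperone genes were taken in 7 lists with 88 genes, of which 76 were tested. In null against wild type 9 of them fell and 11 rose, with a median of 0.04, where 8.09% and 7.6% of all genes fell and rose. In heterozygous against wild type 0 fell and 2 rose, where 0.697% of all genes fell and 0.697% rose. The listed genes that rose in null cells included members outside the cytosol. Hspa9, the mitochondrial HSP70, had a mean signal of 2791 ± 217 in null and 1968 ± 438 in wild-type cells (0.52, adjusted p = 0.0208), and Hsp90b1, the HSP90 of the endoplasmic reticulum, 4949 ± 283 in null and 3734 ± 456 in wild-type cells (0.41, adjusted p = 0.00563). Of the J-domain list (21 tested) 4 rose and 2 fell, led by Dnajb9, a partner of the reticulum's HSP70 (0.59, adjusted p = 0.00157), Dnajb14 (0.55) and Dnajc13 (0.35). Of the other HSP70 and HSP110 genes (8 tested) 4 rose and 0 fell, with Hspa2 at 0.58 and Hspa4, an HSP110 relative, at 0.26, and other probe sets of Hspa4 at 0.05, -0.04 and -0.34, none past the threshold.

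Cochaperones moved both ways in null against wild-type cells, where 8.09% of all genes fell and 7.6% rose. The lists are small, and their counts are given as a description. Of 12 tested partners of HSP70, 2 fell and 1 rose: Stub1, a ubiquitin ligase for chaperone clients (-0.36, adjusted p = 0.0203), Bag1 (-0.29, adjusted p = 0.0277), a nucleotide exchange factor, and St13 (0.24, adjusted p = 0.0458). Other probe sets of St13 gave 0.11 and -0.12, and in the fit over probe sets none of the gene passed. St13 also rose in heterozygous against wild-type cells (0.37, limma adjusted p = 0.0204). Of 10 genes of the HSP90 list, Cdc37, which delivers kinases to HSP90, fell by 0.25 (adjusted p = 0.0428), Hsp90b1 rose, and Fkbp5 did not pass (-0.28, adjusted p = 0.0626). Of 13 chaperonin and prefoldin genes 3 fell and 1 rose. The prefoldin subunits Pfdn4 (-0.52, adjusted p = 0.00502) and Pfdn5 (-0.44, adjusted p = 0.0092) were lower and the chaperonin subunit Cct6a (0.31, adjusted p = 0.00246) higher. Of 10 genes of small heat shock proteins and of other chaperones and proteases, limma called 0. Clpp (-0.22, adjusted p = 0.125), Serpinh1 (0.47, adjusted p = 0.465) and Clpb (-0.17, adjusted p = 0.447) had the lowest p. Among heat shock factors and regulators, Hsbp1, a binding protein of heat shock factor 1, fell by 0.41 (adjusted p = 0.0192), with another probe set at -0.11 (adjusted p = 0.566), and Hsf2 gave -0.29 (adjusted p = 0.476). Hsf2 was dim, with signals of 6.1 to 23.2 where the filter stood at 8.49, and its other probe set was below the filter. The annotation used here held no probe set for Hsf1, the gene of heat shock factor 1. Of 5 other stress-responsive genes tested, 1 fell, Ppp1r15a (-0.65, adjusted p = 0.0494), and Ddit3 (-0.43) and Gadd45b (0.22) did not pass. Whether these genes respond to heat shock factor 1 in these cells was not tested.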

How the data were processed

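The values were MAS5 signal intensities deposited by the authors, 1 for each probe set and array, MAS5 being named in the submitters' processing notes with version and settings not given in the sources used here. They are linear, and their 2% trimmed mean was 100 on each of the 9 arrays. Detection calls were not used here. Precision is set by there being 3 arrays in a group. Groups came from the sample titles.

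Control probe sets (64) were left out. Of the rest, 34945 had 1 gene symbol, 932 several and 9160 none. Signals were transformed as log2(signal + 12). For each gene the probe set with the highest mean stood, and a gene was tested where that mean was at or above the 40th percentile over probe sets (12347 genes). limma 3.58.1 in R 4.3.3 was fitted to all 9 arrays with 3 groups and an intensity trend, two-sided, with Benjamini-Hochberg adjustment and calls at 0.05. A second fit ran over 27022 probe sets. On simulated arrays for null against wild type, 200 of 12347 genes were changed. Of these changes, 82% of 2-fold and 46% of 1.5-fold ones were recovered, with 3 false calls. The data gave 1937 calls, many more than the genes changed in the simulation, so these rates need not carry over.

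The members and gene lists were chosen with earlier results of these data known. Named are all members, of each other list the 3 genes of lowest p for null against wild type, Dicer1, Hsf2, and the 5 genes most correlated with Hspa1b and with Hspa8. Egr1, Klf4, Klf6, Ier5, Lcn2, S100a8, Ms4a2, Xist and Eif2s3y were named after their values were seen. Same-numbered arrays were not paired.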

Additional observations from a re-analysis of the deposited data

How the results depend on the processing

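With 3 arrays in a group, single arrays decide several calls. Of the 10 listed genes, 4 were called in null against wild type, 0 to 4 when 1 array was left out and 0 with no intensity trend. In heterozygous against wild type it was 0, with 0 to 2 when 1 array was left out, 2 with array weights and 2 with the replicate block. In null against heterozygous it was 2, with 1 to 2 when 1 array was left out and 1 with no filter, cyclic loess, no trend, only the 2 groups compared, or array weights. Over all genes, null against wild type gave 1937 calls (1258 to 1938 leaving out 1 array, 1290 with no trend, 3030 of all probe sets). Heterozygous against wild type gave 172 (99 to 169, 83 with no trend, 112 with no filter, 86 with probe sets averaged, 278 of all probe sets), and null against heterozygous 1770 (1033 to 1897, 1103 with no trend). The cause of these moves was not tested.

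Directions changed only in comparisons in which the member was not called. With quantile normalization Hspa8 gave 0.04 in null against wild type and 0.02 against heterozygous, Hspa1b 0.01 and Dnajb1 -0.04 in null against heterozygous. With probe sets averaged, Hspa8 gave -0.05 and Hsp90aa1 -0.02 in heterozygous against wild type. With array weights Dnajb1 gave 0 in null against heterozygous. Leaving out 1 array gave -0.11 to 0.02 for Hspa8 in null against wild type, -0.12 to 0.04 for Hspe1 in heterozygous against wild type, and in null against heterozygous -0.23 to 0.40 for Hspa1a, -0.51 to 0.45 for Hspa1b, 0 to 0.03 for Dnaja1 and Hspd1 and -0.01 to 0.02 for Dnajb1.

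The replicate number of the titles is not known to pair samples. Deviations of same-numbered arrays from their group means correlated at -0.027 to 0.143, and in null against wild type 5 of 6 arrays correlated best with their own number. With the replicate block 2111, 201 and 1934 genes were called, and Hspa1a and Hspa1b passed in heterozygous against wild type (adjusted p = 0.0136 and 0.0176). The block changed no other call of a member.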
